A study of Homo sapiens with 18 samples.

Results

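The clustered protocadherins were examined in peak lists of H3K27ac and CTCF ChIP-seq from HEK293T cells. They were the protein-coding genes on chromosome 5 whose symbols in GENCODE release 44 (hg38) begin with PCDHA, PCDHB or PCDHG followed by a number, A, B or C. The rule gave 53 of 19111 autosomal protein-coding genes, of which 15 were alpha, 16 beta and 22 gamma members. The cluster spanned chr5:140786136-141512977, and 100 kb on either side was included in the locus.

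HEK293T is an immortal line derived from human embryonic kidney. For 1 day, cells received either no drug (CTRL) or 1 mM VPA (valproic acid), which inhibits the deacetylases of histones. The series held 18 samples, of which 12 were ChIP libraries in 4 groups (CTRL and VPA for each antibody, 3 replicates each) and 6 were input libraries, not analysed here. Nothing in the labels said whether replicates came from separate cultures, so p-values measure the spread between these libraries.

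Clustered protocadherins are cell adhesion molecules best known from neurons, where each cell uses a small set of them and thereby gains an identity of its own. Each member has its own promoter and its own variable first exon, and in the alpha and gamma subfamilies these are spliced to constant exons shared by the subfamily. CTCF binds at most of these promoters and links them in loops to enhancers, one group of which lies downstream of the alpha constant exons and another downstream of the gamma genes. PCDHAC2, PCDHB1, PCDHGC4 and PCDHGC5 are known to lack the conserved promoter element that CTCF recognises at the other members. H3K27ac is a histone acetylation that marks promoters and enhancers in use.

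The sequences below are CTCF motif matches in the CTCF regions at member start sites and in 5 CTCF regions elsewhere in the locus. These 5 are the highest-ranking there that hold a match. The sequences are shown because the position of CTCF differed between the subfamilies. The motif searched, on both strands and with at most 2 mismatches, was the CTCF core motif of 14 letters, of which the letters at positions 5 and 9 are free and the other 12 fixed. The matches with 0 mismatches (PCDHB9 and the gamma shared 3′ end) spell its fixed letters. Capitals mark the 14 letters of the match, and 8 bases of hg38 are given on either side, read 5′ to 3′ along the strand of the match.

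At the alpha members the matches lay on the plus strand, the strand of the genes. Of these, 10 lay inside the coding part of the variable exon, between 576 and 627 bp after the canonical start site, and the match at PCDHAC1 (chr5:140926612-140926625) lay in a UTR, 319 bp after it.
PCDHA4: ctcggtttCCACTAGAGGGCGCctcggatg
PCDHA5: cgcggtttCCGCTAGAGGGCGCgtcggatt
PCDHA6: ctgtgtttCCACTGGAGGGCGCgtccgatg
PCDHA7: ctcggtttCCACTAGAGGGCGCgtccgatg
PCDHA8: ctcggtttCCGCTAGAGGGCGCgtccgatg
PCDHA9: ctcggtttCCACTAGAGGGCGCgtccgatg
PCDHA10: ctcgatttCCACTAGAAGGCGCatctgatg
PCDHA11: cgcgttttCCACTAGAGGGAGCttctgatg
PCDHA12: ctcattttCCTCTAGAGGGCGCttctgatg
PCDHA13: ctcgatttCCACTAGATGGCGCatccgatg
PCDHAC1: tctctgcaCCCCTAGGCGGCGCtgcgctcc

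At the beta members the 5 matches also lay on the plus strand, but before the start site, at 43 to 86 bp upstream of it. The match at PCDHB9 (chr5:141187079-141187092) had 0 mismatches.
PCDHB7: tccacaaaACGCAAGGTGGCGCtgctggct
PCDHB9: gttggaagCCACAAGGTGGCGCtgcagact
PCDHB10: ggtggaggCCACACGGTGGCGCtgcaggct
PCDHB11: ctatggagACACTTGGTGGCGCtgcaggat
PCDHB14: acatggagACACATGGTGGCGCtacaggat

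At the gamma members there was 1 match, on the minus strand at PCDHGA4 in the coding exon (chr5:141355207-141355220). The other sequences are from 5 CTCF regions with peaks in all 6 libraries. Of these, 3 lie between the alpha constant exons and PCDHB1 (chr5:141041370-141041383), in the UTR at the shared 3′ end of the gamma genes (chr5:141512501-141512514, 0 mismatches) and in an intron of DIAPH1, the neighbouring formin gene (chr5:141524892-141524905). The fourth is at TAF7, in a UTR, with a match on the plus strand (chr5:141320321-141320334) and another on the minus strand (chr5:141320604-141320617), and the fifth is in another intron of DIAPH1 (chr5:141558032-141558045). All of these but the first TAF7 match lay on the minus strand, opposite to the strand of the protocadherin genes. A second match at the gamma shared 3′ end (chr5:141512539-141512552, minus strand, 2 mismatches) is not printed.
PCDHGA4: ggtctgggCGAGCAGGAGGCGCcgccatta
Downstream of alpha: ctcatctgCCACCAGGTGGCAGgtggatcc
Gamma shared 3′ end: ggctatggCCACTAGGGGGCGCactgggga
TAF7, plus strand: agtcccaaCCTCTAGGTGCCGCtgccggac
TAF7, minus strand: taaggaaaCGACAAGGAGACGCtcggctct
DIAPH1, other intron: tatcttggCCGCCAGGGGGTGCcctttccc
DIAPH1 intron: atgctcagCCAGCAGGTGGCGCtgggagca

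Of the 73 CTCF regions of the locus, 28 held a match, 17 of the 49 at a member start site and 11 of the 24 elsewhere. Of the 14 matches elsewhere, 9 lay on the minus and 5 on the plus strand. From the 3′ end of the gamma genes onward, 7 of 8 matches in 6 regions lay on the minus strand (the eighth overlapped one of the 7), while 16 of the 17 matches at member start sites lay on the plus strand. In replicates 2 and 3, a match lay within 100 bp of 31.0% to 33.3% of the CTCF summits of the locus, compared with 28.4% to 29.9% of all CTCF summits, and the locus was higher in each of these 4 libraries. In replicate 1 it was lower, at 20.4% and 20.9% beside 31.7% and 36.8%. With at most 1 mismatch, the shares in replicates 2 and 3 were 15.9% to 17.1% in the locus and 7.33% to 7.85% of all summits. In replicate 1 they were 10.2% beside 9.11% in CTRL and 9.30% beside 10.4% in VPA. With at most 3 mismatches, the shares over the 6 libraries were 60.6% to 65.2% in the locus and 63.6% to 74.6% of all summits. There the locus was higher only in CTRL replicate 3. With at most 2 mismatches, windows 2 kb away from the summits held a match in 1.11% to 1.28%. In the RefSeq promoters (GRCh38.p14, 250 bases before to 50 after the start), matched by symbol for 47 members, 4 of 14 beta promoters held a match (PCDHB7, PCDHB9, PCDHB10 and PCDHB14), as did 0 of 13 alpha and 0 of 20 gamma promoters, beside 9.40% of all promoters. PCDHA3, PCDHA13, PCDHB6, PCDHB11, PCDHGA12 and PCDHGC5 had no entry. No match says only that these letters are not in the window.

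The libraries were first compared with each other, since replicate 1 stood apart at this locus. Between 26299 and 40992 peaks were listed for H3K27ac, and between 36469 and 58782 for CTCF. The number of reads is unknown. Of the kidney lineage genes, LHX1 and SALL1 had H3K27ac at their start sites in 6 of 6 libraries and PAX2 in none, while neither PTPRC nor ALB, which mark other lineages, had a peak. Of 3 genes that every cell uses, GAPDH and EEF1A1 had it in 6 of 6 libraries and ACTB in 5. Among all start sites with a CTCF peak in the 4 libraries of replicates 2 and 3, both replicate 1 libraries had one at 84.1% (4635 of 5510). For the members this was 14 of 14 alpha, 1 of 15 beta and 12 of 19 gamma start sites, and 11 of the 15 beta start sites had none in either replicate 1 library. Results that rest on replicate 1 are therefore given with and without it.

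The first question was at which members CTCF was bound, and whether this differed after VPA. In CTRL replicates 1, 2 and 3, the start sites of 33, 48 and 48 members lay within 1 kb of a CTCF peak, and in VPA those of 29, 48 and 48 members. The low values are those of replicate 1 in both treatments, and replicates 2 and 3 were alike. These counts are 54.7% to 90.6% of the members, beside 27.2% to 36.9% of all protein-coding start sites. The means were 43 ± 8.66 in CTRL and 41.7 ± 10.97 in VPA (SD, n = 3), and they did not differ beyond the replicates (exact permutation test, two-sided, p = 1). In this design 0.1 is the smallest p that can be reached.

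**Figure D1:**
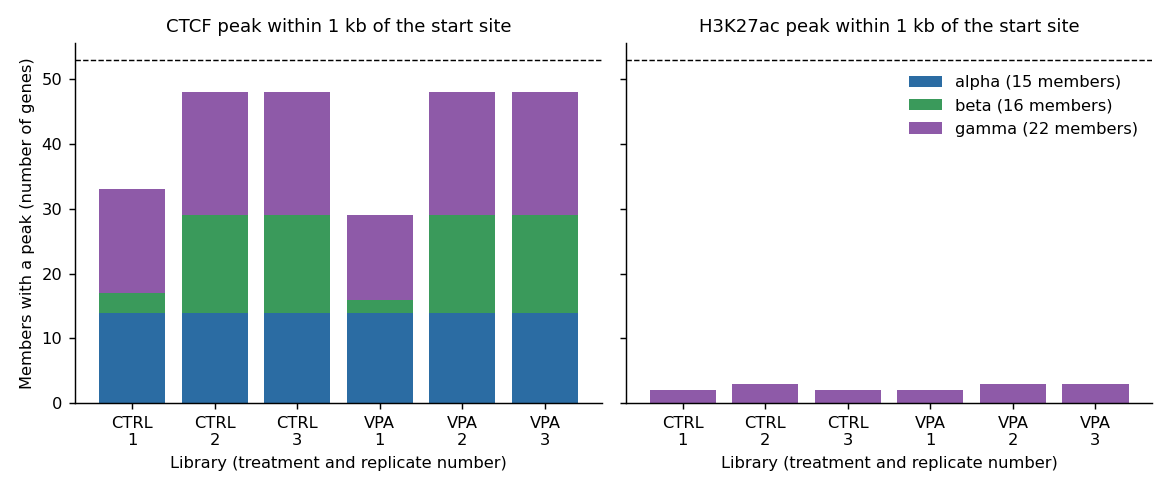
Number of members with a CTCF peak (left) or an H3K27ac peak (right) within 1 kb of the start site in each library, stacked by subfamily, with the 53 members as a dashed line. CTCF was found at 48 members in replicates 2 and 3 of both treatments and at 33 and 29 in replicate 1, where the beta share is small, and H3K27ac at 2 or 3 gamma members.

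By gene, 27 members had CTCF in all 6 libraries. These were PCDHA1 to PCDHA13 and PCDHAC1 among alpha, PCDHB8 among beta, and PCDHGA3, PCDHGA4, PCDHGB2, PCDHGA6, PCDHGB4, PCDHGB5, PCDHGA9, PCDHGB6, PCDHGA10, PCDHGB7, PCDHGA11 and PCDHGC3 among gamma. A further 21 had it in 4 or 5 libraries, namely the other beta members except PCDHB1, and PCDHGA1, PCDHGA2, PCDHGB1, PCDHGA5, PCDHGB3, PCDHGA7 and PCDHGA12. In each of these 21, every missing library was a replicate 1 library. The members with no CTCF peak in any library were PCDHAC2, PCDHB1, PCDHGA8, PCDHGC4 and PCDHGC5.

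PCDHGA8 was in this last list because its gene start lies 2476 bp from the start of its canonical transcript. At the canonical start, a CTCF region (chr5:141392355-141393017) had a peak in all 6 libraries. Its fold enrichment, the ratio of the fragments at the summit to the local background, was 2.44, 18.6 and 10.2 in CTRL and 4.30, 12.9 and 12.5 in VPA. With canonical start sites the members with CTCF numbered 34, 49 and 49 in CTRL and 30, 49 and 49 in VPA, which leaves the 4 members that are known to lack the conserved element as the only ones without a peak in these 6 lists.

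No member had CTCF in all 3 libraries of one treatment and none of the other. Over all 19111 start sites, 14 were found in VPA alone and 14 in CTRL alone by this criterion, 0.0733% in either direction. Among the 27 members with CTCF in every library, the mean fold enrichment was higher in VPA at 16 and lower at 11. Of all 27794 CTCF regions shared by the 6 libraries, 48.6% were higher in VPA by the mean of log2 fold enrichment. These means include replicate 1, and the count over members was not made without it. The lowest exact p over the 27 was 0.2, at PCDHGB6, before any adjustment.

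**Figure D2:**
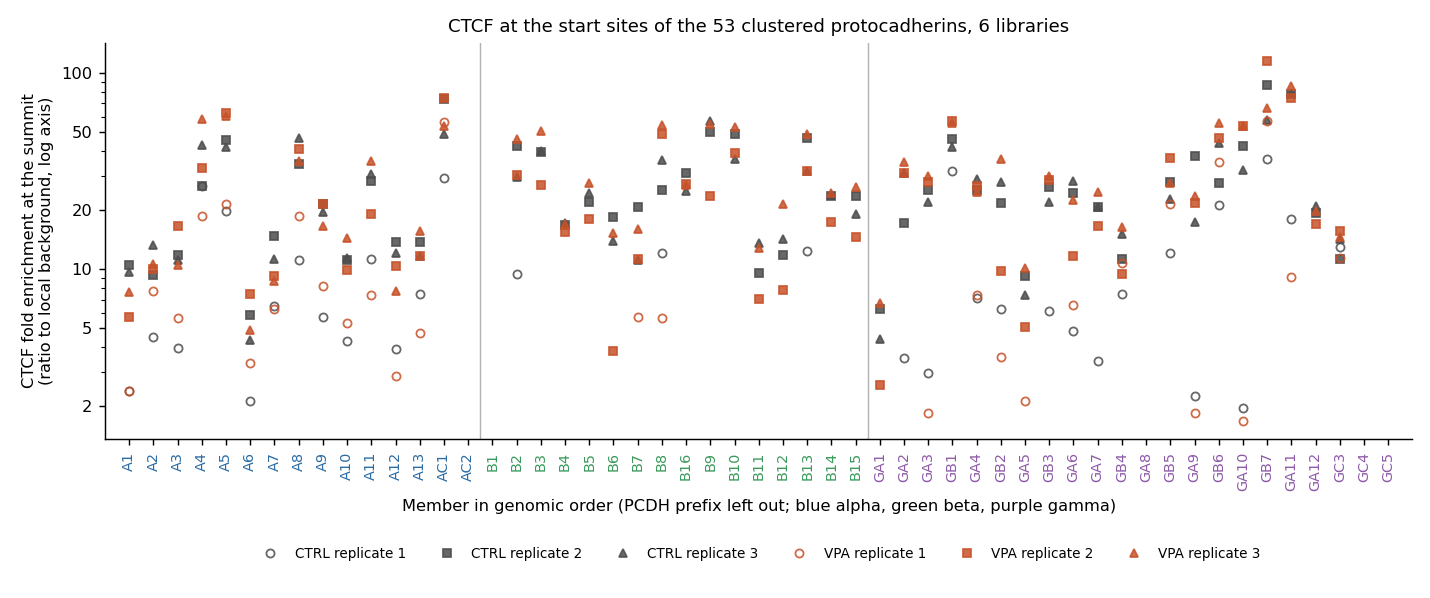
CTCF fold enrichment at the start site of each member in genomic order, on a log axis, with circles, squares and triangles for replicates 1, 2 and 3 and CTRL in grey and VPA in red. No symbol means no peak. Open circles (replicate 1) lie lowest at most members and are absent at most beta members, and the highest value is 116 at PCDHGB7.

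The level of CTCF varied widely between members. PCDHGB7, a late member of the gamma B type, had the highest mean. Its fold enrichment was 36.5, 86.4 and 57.6 in CTRL replicates 1 to 3 and 57.3, 116 and 66.5 in VPA, so the treatments overlapped. At its neighbour PCDHGA11 the values were 18.1, 78.4 and 78.7 in CTRL and 9.12, 74.7 and 86.2 in VPA. Here replicate 1 was far below the other libraries in both treatments.

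PCDHAC1, the C-type member whose exon follows the 13 other alpha exons with CTCF, had 29.2, 73.5 and 48.8 in CTRL and 56.1, 75.1 and 53.9 in VPA. PCDHGB1 had 31.7, 46.1 and 42.0 in CTRL, no peak in VPA replicate 1, and 56.7 and 55.4 in VPA replicates 2 and 3. PCDHB9 had 50.0 and 56.9 in CTRL replicates 2 and 3 and 23.5 and 54.9 in the VPA libraries of the same numbers, with no peak in replicate 1. These 5 had the highest means over the libraries with a peak, and their order changed with replicate 1, since PCDHA5 ranked above PCDHGB1 and PCDHB9 when replicates 2 and 3 alone were averaged (52.6, 50.1 and 46.3).

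Among the C-type members, which neurons are known to use more generally than the other members, PCDHGC3 alone resembled PCDHAC1 in having CTCF in every library. Its fold enrichment was lower and steadier, at 13.0, 11.3 and 14.3 in CTRL and 11.4, 15.7 and 14.6 in VPA. It is one of the members at which replicate 1 lay within the range of the other libraries. PCDHAC2, PCDHGC4 and PCDHGC5 had no CTCF peak in any of the 6 lists, within 1 kb of either start site.

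At the low end were PCDHA6 and PCDHGA1. PCDHA6 had 2.13, 5.88 and 4.36 in CTRL and 3.34, 7.51 and 4.93 in VPA. PCDHGA1, the first gamma member, had 6.28 and 4.39 in CTRL replicates 2 and 3 and 2.58 and 6.76 in VPA, with no peak in replicate 1. Within their own lists the members were unexceptional, as the median member peak ranked between the 50.1 and 57.5 percentile of all CTCF peaks by q-value.

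By subfamily, the median CTCF fold enrichment in the 4 libraries of replicates 2 and 3 was 12.7 to 15.1 for alpha, 18.03 to 26.8 for beta and 22.8 to 27.7 for gamma members, so alpha was lowest in each of them and beta and gamma overlapped. Within each subfamily the members spread far more widely than these medians, from 4.36 to 75.1 in alpha, from 3.85 to 56.9 in beta and from 2.58 to 116 in gamma. Among the gamma types, the 7 PCDHGB members had medians of 27.6 to 36.8 and the PCDHGA members of 21.8 to 24.6. These are descriptions over members that share their libraries, and no test was made of them.

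The position of CTCF also differed by subfamily. In replicates 2 and 3, the median summit of PCDHA1 to PCDHA13 was 562 to 583 bp after the canonical start site. This is inside the variable exon, where the matches of PCDHA4 to PCDHA13 printed above lie. PCDHA1 to PCDHA3 held no match. Over all 6 libraries, the median summits of PCDHA1, PCDHA2, PCDHA3 and PCDHA10 lay nearer the start, at 215, 377, 210.5 and 249 bp. For beta members the median summit in replicates 2 and 3 was between 16 bp before and 6 bp after the start site. For PCDHGA members it was 1 to 26 bp after the start site and for PCDHGB members 47 to 56 bp before it. The alpha peaks were also wider, with median widths of 974.5 to 1066.5 bp in the 4 libraries, compared with 621 to 669 bp for beta and 668 to 707 bp for gamma. In replicate 1 the median alpha summit lay 385 and 420 bp after the start site, between the start and the exonic match.

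**Figure D3:**
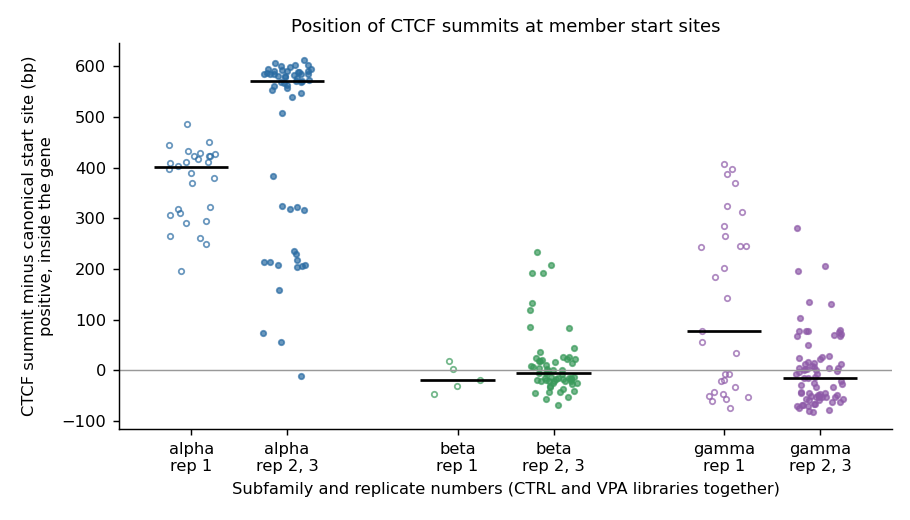
Distance of each CTCF summit from the canonical start site of its member (bp, positive inside the gene) by subfamily, for replicate 1 (open) and replicates 2 and 3 (filled), both treatments together, with the median as a bar. Most alpha summits of replicates 2 and 3 lie well inside the gene, with medians of 551 to 581.5 bp per library, while beta and gamma summits lie around the start site.

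The local background under these peaks also differed by subfamily and replicate. In replicate 1 its median was 26.1 and 26.4 fragments at alpha members and 19.8 and 23.3 at gamma members, but 4.99 and 6.58 at the few beta members with a peak. In replicates 2 and 3 it was 4.97 to 6.62, 3.95 to 5.88 and 3.82 to 4.41 fragments, respectively. Fragments at the alpha summits were more numerous in replicate 1 than in replicates 2 and 3 (medians of 138 and 168.5, against 78 to 97), and the lower fold enrichment there (6.11 and 6.82, against 12.7 to 15.1) went with the higher background. At the few beta members with a peak, summit fragments were fewer in replicate 1 (medians of 33 and 91, against 109 to 151). The gamma medians were 131.5 and 203, against 142 to 161. Whether background accounts for the missing beta peaks was not tested.

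**Figure D4:**
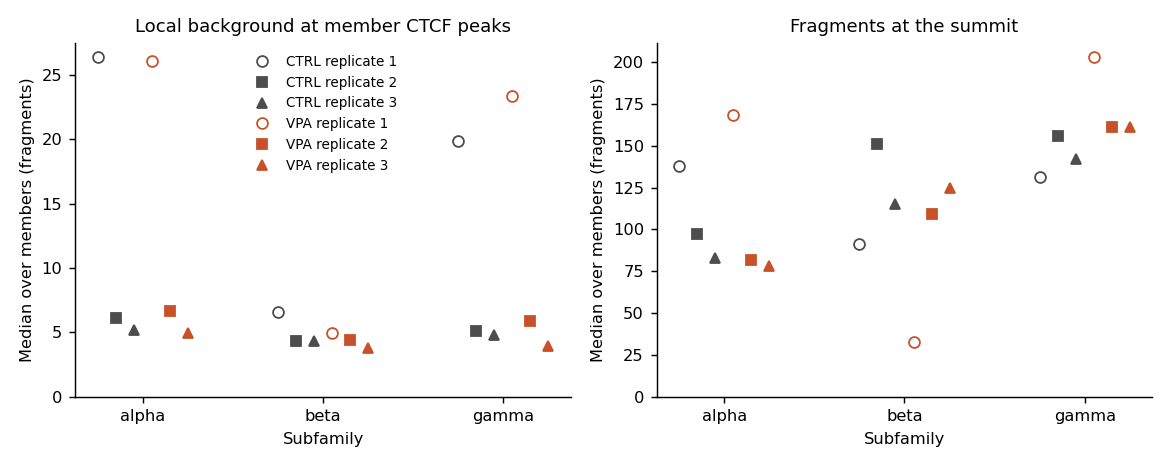
Median local background (left) and median fragments at the summit (right) over the members with a CTCF peak, by subfamily and library, CTRL in grey and VPA in red, replicate 1 as open circles. Replicate 1 stands at 19.8 to 26.4 fragments of background at alpha and gamma members and at 4.99 and 6.58 at beta members.

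Base composition at the start sites was compared next. Within 500 bp of the canonical start site, the median GC content was 43.9% for alpha, 42.6% for beta and 46.7% for gamma members, and 61.4% for all protein-coding genes. The median number of CpG dinucleotides in these windows was 38, 22.5 and 36.5, beside 67 for all genes. The ranges of the subfamilies overlapped (GC content of 41.5% to 64.5%, 40.6% to 49.3% and 41.8% to 55.7%), and no test was made. PCDHAC1 and PCDHAC2 had the highest GC content of the members, at 63.0% and 64.5%, and the former carried strong CTCF in every library while the latter carried none. PCDHB9 and PCDHB10, whose motif matches upstream of the start had 0 and 1 mismatches, had 14 CpG dinucleotides each.

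The second question was whether H3K27ac marked these promoters, and whether VPA changed it. H3K27ac was found within 1 kb of 2, 3 and 2 member start sites in CTRL and of 2, 3 and 3 in VPA, that is 3.77% to 5.66% of the members, beside 58.7% to 65.7% of all start sites. The groups overlapped, at 2.33 ± 0.577 and 2.67 ± 0.577 (exact p = 1). No alpha and no beta member had a peak in any of the 6 libraries. All 3 marked members were gamma genes, namely PCDHGA11 in 6 of 6 libraries, PCDHGC3 in 5 and PCDHGC4 in 4.

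PCDHGA11, which also carried one of the strongest CTCF peaks, had an H3K27ac fold enrichment of 2.60, 5.36 and 6.72 in CTRL and 2.30, 5.02 and 7.28 in VPA. The treatments overlapped and replicate 1 was lowest in both. The log2 difference (VPA minus CTRL) was −0.05 (SE 0.61, limma on log2 fold enrichment over 18407 shared regions, adjusted p = 1.00). The H3K27ac summits lay 184 to 224 bp inside the gene, and those of CTCF at a median of 26.5 bp before the start.

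PCDHGC3 had 2.74, 3.68 and 3.59 in CTRL and 4.05 and 2.60 in VPA replicates 2 and 3, with no peak in VPA replicate 1. PCDHGC4, one of the members without CTCF, had H3K27ac in CTRL replicate 2 only among untreated libraries (3.42), and in all VPA libraries (4.86, 3.77 and 3.03). It was the member closest to a difference in presence, since without CTRL replicate 2 it would count as found in VPA alone. As measured, 0 of 53 members passed this criterion in either direction, beside 0.283% of all start sites in VPA alone (54 genes) and 0% in CTRL alone.

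The marked members carried weak peaks. Over the libraries with a peak the members' H3K27ac fold enrichment ranged from 2.30 to 7.28, with a median of 3.68 over 15 values. The non-clustered protocadherins, relatives encoded by separate genes elsewhere, served as a list for comparison. Of 10 such genes, 8 had H3K27ac in 6 of 6 libraries (PCDH7, PCDH9, PCDH10, PCDH12, PCDH15, PCDH17, PCDH18 and PCDH20), with a median of 10.2 over 55 values of the whole list. CTCF was present in all libraries at 4 of the 10 (PCDH1, PCDH10, PCDH12 and PCDH15). All 11 genes of a list of cluster regulators (CTCF, RAD21, SMC3, STAG1, NIPBL, WAPL, SMCHD1, SETDB1, DNMT1, DNMT3A and DNMT3B) had H3K27ac in all 6 libraries, and 5 of them had CTCF in all 6. In neither list was a gene found in 3 of 3 libraries of one treatment and none of the other. PCDH8, named after its values were seen, had H3K27ac in VPA replicates 2 and 3 (3.30 and 2.79) and in no CTRL library.

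The third question concerned the locus beyond the start sites. The number of H3K27ac peaks was 9, 11 and 8 in CTRL and 12, 15 and 16 in VPA. The groups did not overlap, with means of 9.33 ± 1.53 and 14.3 ± 2.08, a difference of 5 peaks (exact p = 0.1, the smallest possible; adjusted over 13 tests, 0.52). Replicate numbers were taken as a pairing of the H3K27ac libraries, and the difference was 3 in replicate 1 and 6 on average in replicates 2 and 3 (exact sign-flip test within replicate numbers, p = 0.25, the smallest possible). The covered length was 11.5 ± 0.635 kb in CTRL and 17.6 ± 1.95 kb in VPA (exact p = 0.1, adjusted 0.52).

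The H3K27ac lists as a whole were also longer in VPA (38441 to 40992 peaks) than in CTRL (26299 to 29799). With all lists limited to the length of the shortest the difference was 1.67 peaks (exact p = 0.2), and with peaks of −log10 q of at least 10 it was 2.33 (exact p = 0.1). Within the cluster itself it was 0.333, CTRL libraries having 3, 4 and 3 peaks there and VPA libraries 3, 4 and 4. It was 1 in the 100 kb upstream and 3.67 in the 100 kb downstream, where CTRL had 0, 1 and 0 peaks and VPA 3, 5 and 4. The flanks were not planned as separate comparisons, and no test was made of them. How many windows of this size elsewhere in the genome separate the treatments in this way was not counted.

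**Figure D5:**
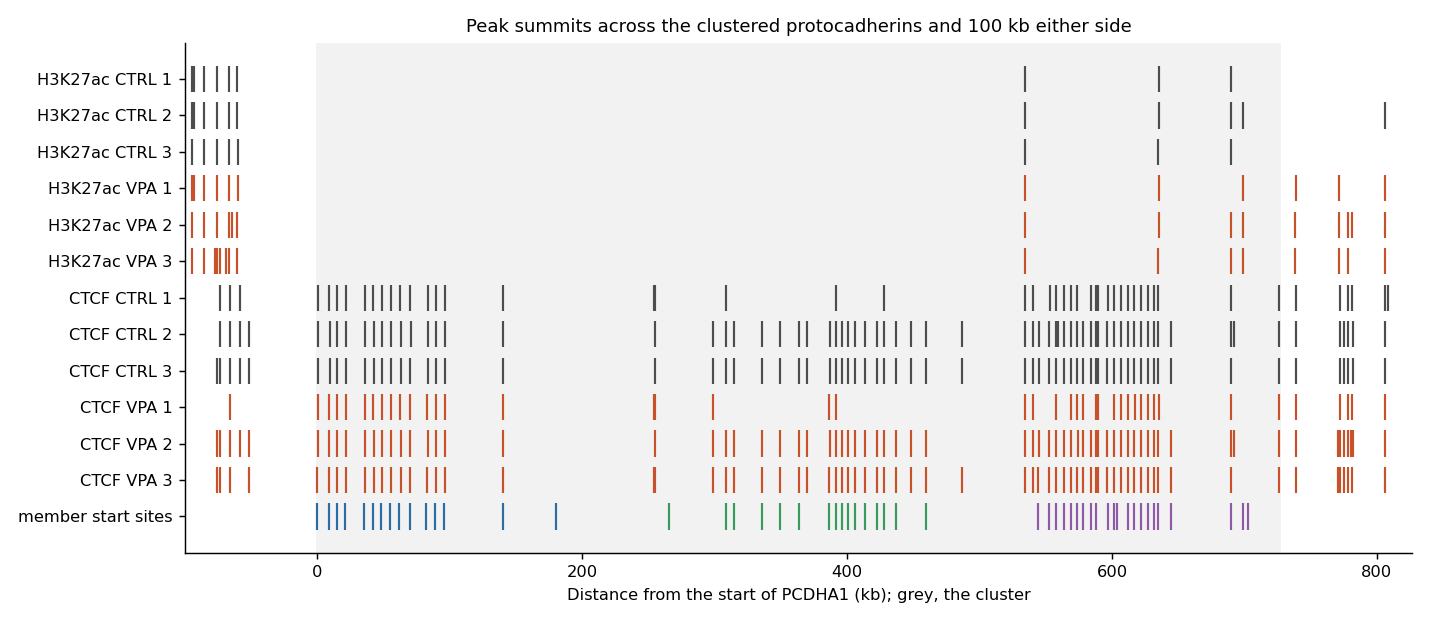
Peak summits in the 12 libraries against distance from the start of PCDHA1 (kb), CTRL in grey and VPA in red, with the member start sites below (alpha blue, beta green, gamma purple) and the cluster shaded. CTCF lines follow the start sites, and H3K27ac is confined to 3 or 4 summits within the cluster and to both flanks, where the downstream flank holds 0 or 1 summit in CTRL and 3 to 5 in VPA. The flanks were not tested separately.

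All 5 H3K27ac regions downstream of the cluster lay inside DIAPH1, and all 5 overlapped a CTCF region, compared with 5 of the 12 H3K27ac regions elsewhere in the locus. No test was made of this, and the share of H3K27ac regions of the genome that overlap a CTCF region was not counted. Of the 17 H3K27ac regions of the locus, 2 were found in all VPA libraries and no CTRL library, beside 4.12% of 55382 regions of the genome, and 0 in CTRL alone (0.139%). The first of them, chr5:141524036-141525454, had a fold enrichment of 2.99, 3.75 and 2.91 in VPA. It overlapped the CTCF region that holds the DIAPH1 intron sequence printed above.

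The second, chr5:141557533-141558110, had 10.5, 3.54 and 4.79 in VPA. Of the others, chr5:141564317-141564909 was found in VPA replicates 2 and 3 (5.25 and 7.72), chr5:141567268-141567901 in VPA replicate 2 (2.83), and chr5:141591736-141592181 in CTRL replicate 2 (3.55) and all VPA libraries (4.98, 2.14 and 4.64). Fold enrichment was thus low in most of them, near the level of the marked members.

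The strongest H3K27ac regions of the locus were not at members. The one ranking highest within its lists was at TAF7, a gene for a general transcription factor subunit that lies between the beta and gamma genes (chr5:141319831-141321622), with 24.4, 29.4 and 34.9 in CTRL and 19.9, 27.6 and 26.9 in VPA. Next came the shared promoter of HARS1 and HARS2, which encode histidyl-tRNA synthetases (chr5:140690242-140693450), with 8.01, 25.1 and 19.2 in CTRL and 6.78, 17.3 and 23.9 in VPA. The treatments overlapped at both. Within number, VPA was lower than CTRL at TAF7 in each replicate (log2 difference −0.25, SE 0.52, limma, adjusted p = 1.00, and 0.415 with the block), and at HARS1 and HARS2 in replicates 1 and 2 only. Of the 6 other protein-coding genes of the locus, these 3 had H3K27ac within 1 kb of the gene start in all libraries, and TAF7 also had CTCF. A further region in 6 of 6 libraries, chr5:140700197-140701374, had its summit 240 bp from the canonical start site of ZMAT2, outside the window at the start of that gene. The remaining regions of this rank were chr5:140709702-140712660 and chr5:140717684-140721054, both intergenic, upstream of PCDHA1 and present in 6 of 6 libraries.

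At the 7 H3K27ac regions shared by all 6 libraries, limma called 0 differences (0 also at an unadjusted p under 0.05). Genome-wide it called 0 of 18407 regions in either direction (0%), with 161 at an unadjusted p under 0.05. With the replicate number as a block, 1 of the 7 was higher in VPA, beside 5.05% of regions called higher and 8.9% called lower. It was the intergenic region chr5:140725063-140727017, at −60.3 kb from the start of PCDHA1, with 11.98, 5.58 and 5.75 in CTRL and 21.3, 9.35 and 9.58 in VPA. VPA was higher than CTRL within each replicate number, by 0.77 on the log2 scale (adjusted p = 0.0261 by limma with the block, 1.00 without it).

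CTCF peaks were dense in the locus, at 46.4 to 76.6 per Mb in the 6 libraries, or 3.66 to 4.12 times the density over the autosomes. For H3K27ac this ratio was 0.833 to 1.22. CTCF peaks numbered 49, 70 and 69 in CTRL and 43, 71 and 70 in VPA (62.7 ± 11.8 and 61.3 ± 15.9, exact p = 1). Without replicate 1 the 4 libraries lay between 69 and 71. Of 73 CTCF regions, 39 were in all 6 libraries, beside 39.7% of 69985 regions of the genome. In the locus 0 were found in all 3 libraries of one treatment and none of the other. By this criterion, 0.186% of the 69985 regions were in VPA alone and 0.326% in CTRL alone.

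The strongest CTCF regions by rank within the lists were the DIAPH1 intron (chr5:141524224-141525550) and the shared 3′ end of the gamma genes (chr5:141511936-141513268), ahead of PCDHAC1, PCDHGB7 and PCDHGA11. The DIAPH1 region had a fold enrichment of 324, 144 and 107 in CTRL and 39.7, 107 and 86.6 in VPA. Its log2 difference was −1.25 (SE 0.60, limma over 27794 shared regions, adjusted p = 1.00). The treatments overlapped, at 107.2 in VPA replicate 2 and 106.7 in CTRL replicate 3. VPA was lower within each replicate number, most of all in replicate 1, but the number was not taken as a pairing for CTCF. The 3′ end of the gamma genes had 41.1, 79.7 and 69.1 in CTRL and 38.2, 90.3 and 56.7 in VPA, so the treatments overlapped. Over the 39 shared regions of the locus the log2 difference had a median of 0.02, with 20 higher and 19 lower in VPA. Over all shared regions the median was −0.02. In replicate 1 alone the medians were −0.11 in the locus and 0.21 over all shared regions. Without replicate 1 they were −0.05 and 0.03. The locus median was thus the lower one with replicate 1 alone and without it, unlike in the pooled values. No test was made of these medians. limma called 0 of the 39 and 0% of all regions in either direction, with and without the block (90 of all regions and 0 of the 39 at an unadjusted p under 0.05, without it).

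The CTCF region between the alpha constant exons and PCDHB1 held peaks in all 6 libraries, and these were split into 2 peaks in CTRL replicate 1 and VPA replicates 1 and 3. The highest summit of each library had a fold enrichment of 93.4, 45.5 and 48.9 in CTRL and 9.57, 64.0 and 57.2 in VPA. Replicate 1 held both the highest and the lowest value. In replicates 2 and 3 both VPA values lay above both CTRL values, with no test at 2 libraries a treatment, and over all 6 libraries the log2 difference of the region was −0.86 (SE 0.80, limma, adjusted p = 1.00). The site was chosen after its values were seen, and how many shared CTCF regions separate in this way was not counted.

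The change of locus peaks after VPA was compared between the antibodies. The log2 ratio of mean peak numbers (VPA over CTRL) was 0.62 for H3K27ac and −0.03 for CTCF. Their difference of 0.65 did not pass the exact permutation test over 400 assignments of the libraries (two-sided, p = 0.12, adjusted 0.52; 0.125 with replicate numbers as a block).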

How the data were processed

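The authors aligned paired reads to hg38 with Bowtie2 and called peaks with MACS3 (3.0.0a7 per the labels) in each library at a q-value of 0.05, without pooling. Whether inputs served as controls is not given in the sources used here. The deposited lists give for each peak the fold enrichment (a ratio of summit to local background), −log10 p-value, −log10 q-value and a score, which was not used. Summit fragments and local background were recovered from fold and p-value, with all 254 CTCF and 15 H3K27ac values whole within 0.05.

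Members and lists were chosen with earlier results of these data known. A member had a peak where a peak shared at least 1 bp with the 1 kb either side of its gene start. Peaks were merged into regions over the 6 libraries of an antibody. Counts were compared by exact permutation tests (20 assignments, 13 tests adjusted by Benjamini-Hochberg), and log2 fold enrichment by limma 3.58.1 (R 4.3.3), with a threshold of 0.05 on adjusted p. In simulated data, limma recovered 29 of 100 H3K27ac regions changed by 2 on the log2 scale and 100 of 100 changed by 4 (18407 regions). For CTCF it recovered 12 and 85 (27794 regions). The simulated noise was independent, with a single pooled SD for each antibody (0.791 for H3K27ac and 0.973 for CTCF). Real regions differed in their spread and replicate 1 stood apart, so recovery in the real data may differ. Same-numbered libraries deviated together for H3K27ac (correlations of 0.864, 0.585 and 0.590), and the number was taken as a pairing. Replicates 2 and 3 correlated as well across numbers (0.606 and 0.554), so that replicate 1 is told apart from the others and 2 is not told from 3. For CTCF, same-numbered libraries did not all deviate together (0.340, −0.0451 and 0.477), and the number was not taken as a pairing. Python 3.11.15, numpy 2.4.6 and matplotlib 3.10.9 were used.

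Values are named for members with H3K27ac, the 5 of highest mean fold per antibody, the C-type members, regions in one treatment alone, regions past the limma threshold and the 5 regions of highest rank. PCDHA6, PCDHGA1, PCDHA5, PCDH8 and the site downstream of alpha were chosen after their values were seen. Alternatives were peaks with −log10 q of at least 3 or 10, lists of equal length, windows of 500 bp or 2 kb, summits inside the window, canonical start sites, the cluster without flanks, a replicate block, each library left out and, chosen after seeing the data, replicates 2 and 3 alone. A gene of the marker lists is not reported here.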

Additional observations from a re-analysis of the deposited data

How the results depend on the processing

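Of 225 alternative values over 18 results, 201 were counted as unchanged, and no exact test passed 0.05. A difference that fell to 0 was counted as unchanged. This was so for members with H3K27ac with −log10 q of at least 10, and for members with CTCF with replicates 2 and 3 alone. With lists of equal length, the difference in members with H3K27ac became −0.667, for all and for gamma members alike. The difference in alpha members with CTCF, 0 as reported, was 0.667 with −log10 q of at least 10, 0.333 with equal lengths, −0.667 in the 500 bp window and 0.667 with summits inside the window. With replicates 2 and 3 alone (chosen after seeing the data), the CTCF locus peaks differed by 1 in place of −1.33. The replicate block gave 1 H3K27ac region past the threshold in place of 0, and changed no other call. The share of locus CTCF summits with a motif, a mean of 28.3%, was 14.4% with at most 1 mismatch and 63.3% with at most 3. Leaving out each library, the difference ranged from −6.33 to 5 for members with CTCF, −4.33 to 4 for beta, −2 to 1 for gamma, −8.17 to 7.83 for CTCF locus peaks and −9.55 to 7.46 kb for their covered length. The high ends came without VPA replicate 1 and the low ends without CTRL replicate 1 (for gamma also without VPA replicate 2 or 3). Without CTRL replicate 2, 1 member (PCDHGC4) had H3K27ac in VPA alone, and otherwise 0. The difference between antibodies ranged from 0.45 to 0.80 (exact p of 0.07 to 0.245). Read depth is unknown, 3 libraries a group limit the exact p to 0.1, and a missing peak does not show that a site is unbound.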
